A study of Homo sapiens with 6 samples.

Results

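Interferon-stimulated genes were followed in U-2 OS, a cell line from a human osteosarcoma, with and without DNA damage. Members were taken from a fixed list of gene symbols, and the estimated counts of all their transcripts were added per gene. All 46 listed genes were found among the 21447 genes of the files. Of these, 40 had enough counts to be tested, and BST2, DHX58, HERC5, IFI35, IFITM1 and RSAD2 did not.

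RNA was measured in bulk from unsynchronized cells, as 3 untreated libraries and 3 from cells taken 24 h after ionizing radiation (IR) with 4 Gy. Both groups come from the same cell line with no genetic change, cytokine or drug given in the labels, so that IR is the only difference named. Libraries held between 18573309 and 22953834 estimated counts, except for IR replicate 3 with 45308792, which has the smallest counting error. By a chi-square per gene, IR replicate 3 was further from IR replicates 1 and 2 (29.2 and 33.5) than these were from each other (6.32). The study's methods call the replicates independent samples, and neither they nor the labels say whether these were separate cultures, so that P values measure the spread between these libraries, which may be in part technical. CDKN1A, a p53 target that served as check of the treatment labels, was at 120 to 124 CPM (counts relative to the scaled library size) in the untreated libraries and at 322 to 390 CPM after IR. Of 9 osteoblast and mesenchymal markers, 8 were tested, and their sum was 6102 to 6559 CPM in untreated and 6451 to 7171 CPM in IR libraries. COL1A1, SPARC and VIM carried most of this sum, whereas TWIST1 was at 0 in the untreated and at 0.0968 CPM or less in the IR libraries, RUNX2 fell from 15.5 to 16.1 CPM to 11.3 to 13.9 CPM, and ALPL rose from 1.70 to 2.14 CPM to 3.05 to 4.95 CPM. COL1A2 was low as well, at 0.977 to 2.14 CPM over all libraries. Of 8 blood and immune markers, CD3E was at 0 in all libraries and only PTPRC exceeded 1 CPM in any library, with summed levels of 2.25 to 2.94 CPM in untreated and 2.06 to 2.50 CPM in IR libraries. Epithelial markers, of which CDH1 alone was called (log2 fold change 0.61, adjusted P = 0.0465), summed to at most 24.2 CPM in any library, and endothelial markers to 3.61 to 4.94 CPM in untreated and 4.50 to 5.91 CPM in IR libraries. Their part in the values below was not tested.

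Interferons are secreted proteins that warn neighbouring cells of infection. Type I interferons bind a receptor made of IFNAR1 and IFNAR2, whose kinases JAK1 and TYK2 phosphorylate STAT2, which acts with IRF9 in a complex that binds the interferon-stimulated response element of target promoters. The targets include sensors of foreign RNA, the ubiquitin-like protein ISG15 with its conjugation enzymes, proteins that bind or degrade RNA, and membrane proteins that hinder entry of viruses. Part of them can also be switched on without interferon by IRF3 and related factors. DNA that reaches the cytosol can be sensed by cGAS, which signals through STING to IRF3.

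The response element was looked up in the promoters of the listed genes, and stretches that hold it are shown because it is the element through which type I interferon acts. The RefSeq promoter table (GRCh38.p14, 250 bases before to 50 bases after the start) held 38 of the 46 genes, and DHX58, GBP2, IFIT2, IFITM2, MX2, OAS2, OASL and USP18 had no entry. The element, searched on both strands as GAAA, any 2 bases and GAAA again, was present in 26 of the 38 (68.4%), against 4.38% of 27305 genes with a promoter in the same table. The gamma activated sequence, another element of interferon targets, searched as TTC, any 3 bases and GAA, was present in 9 of the 38 (23.7%), against 9.38% of these genes. Neither pattern contains the other, and a match is a description of letters and not a bound site. For the genes below, the match or matches nearest the start are in capitals with 15 bases on each side, written 5′ to 3′ on the strand of the gene, so that TTTC, 2 bases and TTTC is the same element on the other strand.
ISG15, chr1:1013369-1013414, plus strand: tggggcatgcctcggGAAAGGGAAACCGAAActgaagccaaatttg
IFIT3, chr10:89327860-89327899, plus strand: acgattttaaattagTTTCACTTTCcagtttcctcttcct
IFIT1, chr10:89392492-89392544, plus strand: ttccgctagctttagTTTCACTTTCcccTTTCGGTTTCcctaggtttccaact
IFI44, chr1:78649756-78649795, plus strand: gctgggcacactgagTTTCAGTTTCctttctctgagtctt
IFI44L, chr1:78620360-78620399, plus strand: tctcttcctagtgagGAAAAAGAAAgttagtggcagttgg
IFITM3, chr11:320871-320927, minus strand: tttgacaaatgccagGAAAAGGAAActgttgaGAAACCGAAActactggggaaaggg
EIF2AK2, chr2:37156962-37157001, minus strand: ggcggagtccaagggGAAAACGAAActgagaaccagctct
OAS3, chr12:112938447-112938486, plus strand: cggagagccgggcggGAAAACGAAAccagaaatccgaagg
IFIH1, chr2:162318681-162318720, minus strand: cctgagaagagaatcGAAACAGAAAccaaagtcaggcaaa

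In the ISG15 promoter 2 matches overlap, the nearer of which begins 107 bases upstream of the start, and in IFITM3 the nearer begins 35 bases upstream. EIF2AK2 and OAS3, which share the stretch GAAAACGAAA, have it from 6 and 12 bases upstream, in EIF2AK2 across the start itself. As described below, ISG15, IFIT3, IFI44 and IFITM3 were higher after IR, EIF2AK2 and OAS3 were lower, and IFIT1, IFI44L and IFIH1 did not pass the test. Of the listed genes with a promoter in the table, the element was present in 7 of 10 that were higher, in both that were lower, in 13 of 21 that were tested and not called, and in 4 of 5 that were not tested.

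IR was compared with untreated cells to ask which of these genes changed a day after damage. Of the 40 tested genes, 12 were higher and 2 lower after IR, and 26 did not pass the test (edgeR's quasi-likelihood test, adjusted P under 0.05 over all 14323 genes tested). Over all genes 30.1% were called, 15.5% as higher and 14.5% as lower, so that the 12 higher genes (30%) were a larger share and the 2 lower genes (5%) a smaller share than among all genes. The list was chosen with earlier results of these data known, so that these shares are a description only. No test of the list as a whole was run. The median log2 fold change was 0.14 over the 40 genes and 0.01 over all genes tested. In CPM, 16 genes had all IR libraries above all untreated libraries and 4 had them below, and for 20 the groups overlapped. Over all genes 23.8% lay above, 23.3% below and 47.1% apart in either direction. Of the 12, 9 had a log2 fold change over 0.5, and 5.98% of all genes were called higher with such a change. Without IR replicate 3, the deepest library, 13 were higher and 1 lower. As RNA was measured in bulk, a change in the number of cells that express a gene and a change of RNA per cell cannot be told apart.

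**Figure D1:**
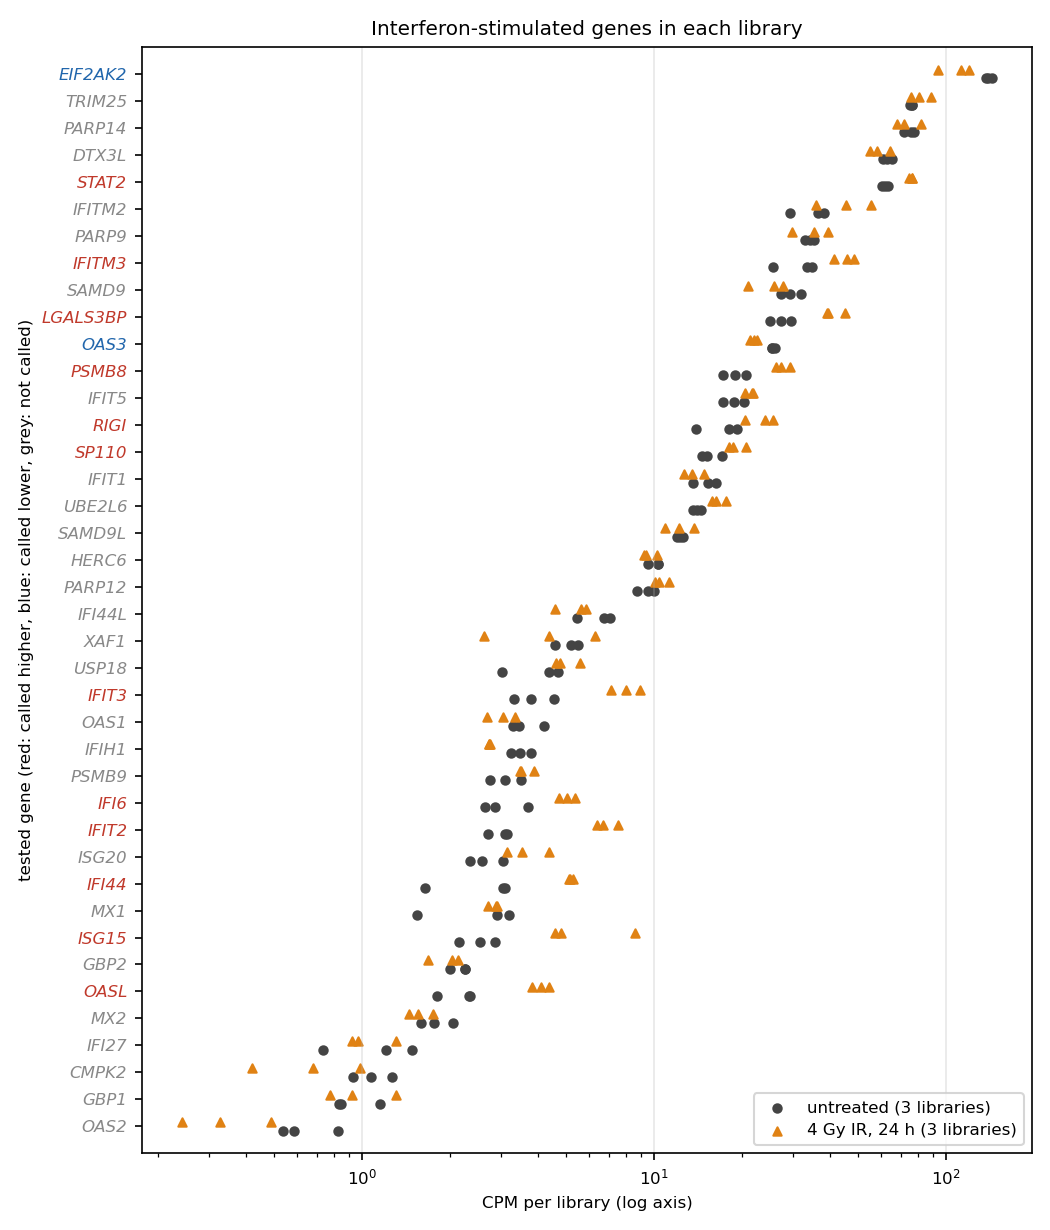
Level of each of the 40 tested genes in each library, in CPM on a log axis, with dots for the 3 untreated and triangles for the 3 IR libraries; genes are ordered by their untreated mean and coloured by call. Genes called higher are found from OASL, with an untreated mean of 2.16 CPM, up to STAT2 with 61.8 CPM, and EIF2AK2 at the top is the most counted gene and is lower after IR.

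**Figure D2:**
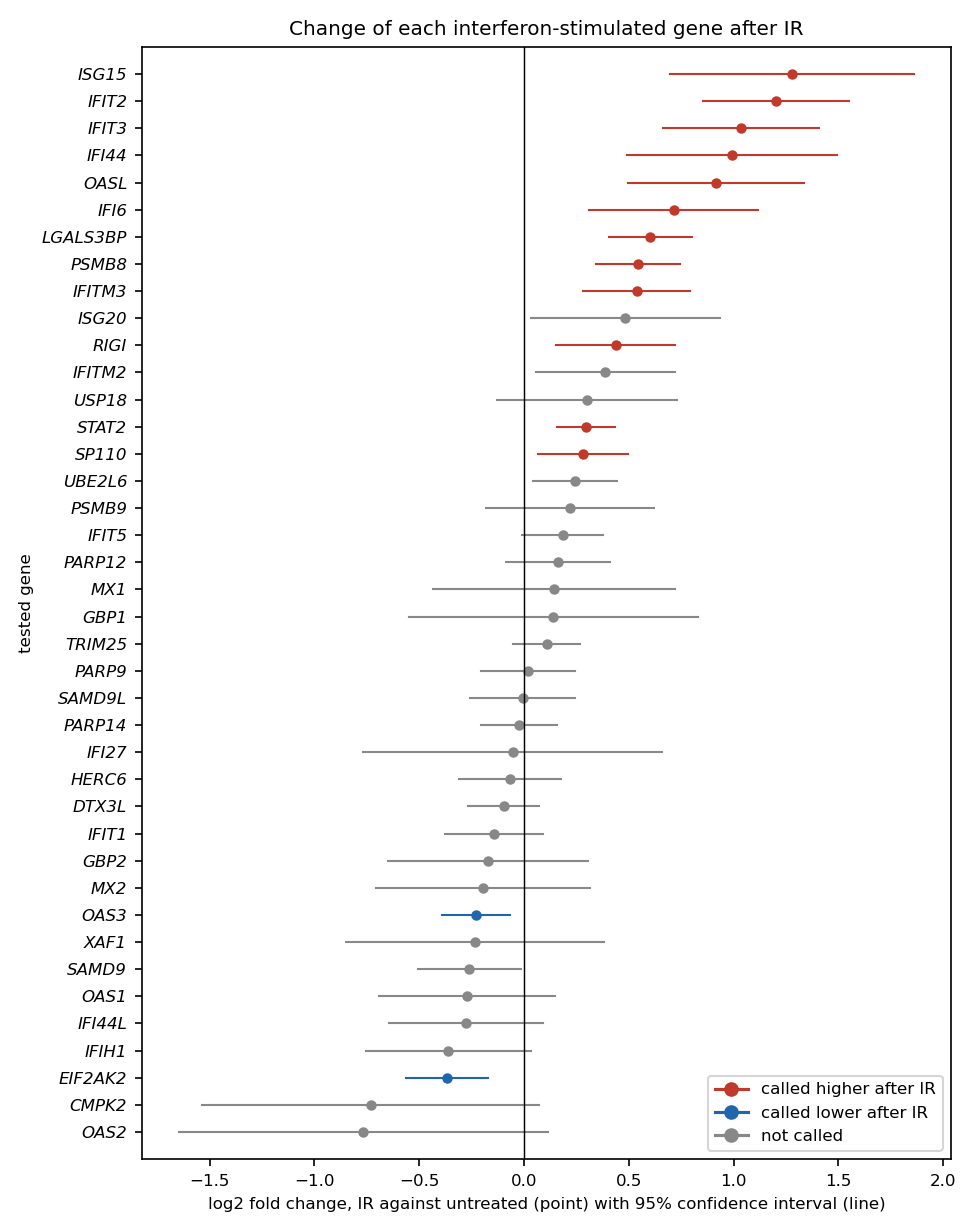
Log2 fold change of each tested gene after IR (point) with its 95% confidence interval (line), ordered by size. The values run from 1.28 for ISG15 to −0.77 for OAS2, and most of the grey genes, which were not called, have intervals that include 0.

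The sensors of foreign RNA and the signalling genes were counted first. RIGI (chr9:32455302-32526208), which encodes the sensor RIG-I for RNA with a 5′ triphosphate, was at 13.9, 18.0 and 19.3 CPM in untreated replicates 1 to 3 and at 23.9, 25.5 and 20.5 CPM in IR replicates 1 to 3. All IR libraries were above all untreated libraries, by a margin of little more than 1 CPM. The log2 fold change was 0.44 (standard error, SE, 0.13, adjusted P = 0.0270). In the fits without untreated replicate 1 or 2 or without IR replicate 1 or 2 it was 0.31, 0.48, 0.40 and 0.37 and did not pass the test. RIGI shares 4471 exon bases on its own strand with a readthrough gene, ENSG00000288684, so that its reads may have been split, and for both genes together the value was 0.29 (adjusted P = 0.0461). STAT2 (chr12:56341597-56360203), the signal transducer of type I interferon, was at 61.8, 63.2 and 60.4 CPM in untreated cells and at 74.6, 76.6 and 76.4 CPM after IR. The spread within each group was under 3 CPM and the groups lay apart. The log2 fold change of STAT2 was 0.30 (SE 0.06, adjusted P = 0.00656).

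TRIM25, the ubiquitin ligase that activates RIG-I, was at 76.7, 76.6 and 75.3 CPM and at 81.1, 76.0 and 88.7 CPM after IR. The groups overlapped, and the log2 fold change of 0.11 did not pass the test (adjusted P = 0.278). IFIH1, which encodes the sensor MDA5 for long double-stranded RNA, was at 3.24 to 3.79 CPM in untreated and at 2.71 to 2.75 CPM in IR libraries, which did not overlap, and was not called (log2 fold change −0.36, adjusted P = 0.148). DHX58, which encodes the related LGP2, was at 0.327 to 0.726 CPM in the 6 libraries and could not be tested.

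ISG15 and the enzymes that attach it to other proteins differed among themselves. ISG15 itself (chr1:1001138-1014540) was at 2.53, 2.85 and 2.15 CPM in untreated cells and at 4.79, 4.57 and 8.59 CPM after IR. All IR libraries were above the untreated ones, and IR replicate 3 was the highest by a wide margin. Its log2 fold change of 1.28 was the largest of the listed genes (SE 0.26, adjusted P = 0.00621), and it was 0.89 without IR replicate 3 (adjusted P = 0.0120). UBE2L6, the conjugating enzyme for ISG15, was not called, with 13.6 to 14.5 CPM in untreated and 15.7 to 17.7 CPM in IR libraries (log2 fold change 0.24, adjusted P = 0.0663). USP18, the protease that removes ISG15 and also dampens the receptor, had a log2 fold change of 0.30 (95% confidence interval −0.13 to 0.73). HERC6, of the family of the human ISG15 ligase HERC5, was at 9.55 to 10.3 CPM and 9.20 to 10.3 CPM, and HERC5 itself stayed at 0.165 CPM or less in all libraries.

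Among the proteins that bind or degrade RNA, 3 of 10 genes were higher, 2 lower and 5 not called. Over all genes 15.5% were higher and 14.5% lower. IFIT2 (chr10:89283694-89309271), one of the tetratricopeptide proteins that bind viral RNA and hold back translation, was at 2.69, 3.08 and 3.13 CPM in untreated cells and at 7.50, 6.70 and 6.40 CPM after IR. All IR libraries were above 6 CPM and all untreated ones below 4 CPM. The log2 fold change was 1.20 (SE 0.16, adjusted P = 8.77e-04), the lowest P of the listed genes. IFIT3 (chr10:89327307-89377473), which binds IFIT1 and IFIT2 and stabilizes IFIT1, was at 3.79, 4.55 and 3.32 CPM and at 7.99, 8.98 and 7.11 CPM after IR. The groups lay apart, with a log2 fold change of 1.03 (SE 0.17, adjusted P = 0.00221). IFIT1, which recognizes RNA without 2′-O-methylation of its cap, was at 13.6, 15.3 and 16.3 CPM and at 12.7, 14.8 and 13.5 CPM after IR. These values overlapped, and the log2 fold change was −0.14 (95% confidence interval −0.38 to 0.09). IFIT5 was at 17.2 to 20.3 CPM and 20.5 to 21.8 CPM, with a log2 fold change of 0.18 that did not pass the test (adjusted P = 0.136).

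The oligoadenylate synthetases, which make the activator of RNase L on double-stranded RNA, went in different directions. OASL (chr12:121017763-121039246), a family member without synthetase activity that enhances RIG-I signalling, was at 1.81, 2.32 and 2.35 CPM in untreated cells and at 4.36, 3.81 and 4.10 CPM after IR. The groups lay apart, with a log2 fold change of 0.92 (SE 0.19, adjusted P = 0.00645). OAS3 (chr12:112938051-112976460) was at 25.4, 26.0 and 25.4 CPM and at 21.98, 22.5 and 21.2 CPM after IR. It was lower in every IR library by a small amount, with a log2 fold change of −0.23 (SE 0.07, adjusted P = 0.0396). The call of OAS3 was lost without any 1 of the 6 libraries (adjusted P from 0.0536 to 0.129), and over protein-coding transcripts alone the log2 fold change was 0.12 (adjusted P = 0.801). OAS1 was at 3.27 to 4.19 CPM and 2.67 to 3.34 CPM and was not called. OAS2 was at 0.824, 0.535 and 0.586 CPM and at 0.242, 0.327 and 0.487 CPM after IR. Its IR libraries were all below the untreated ones, but with a mean of 12 counts per library the log2 fold change of −0.77 had a 95% confidence interval from −1.65 to 0.11 (adjusted P = 0.167).

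EIF2AK2 (chr2:37099210-37157522), which encodes the kinase PKR that stops translation on double-stranded RNA, had the highest CPM of the listed genes. It was at 137, 143 and 139 CPM in untreated cells and at 120, 112 and 93.7 CPM after IR. All IR libraries were below all untreated ones, and they also differed among themselves more than the untreated ones did. The log2 fold change was −0.37 (SE 0.09, adjusted P = 0.0122). ISG20, an exonuclease for single-stranded RNA, was at 2.35 to 3.03 CPM and at 3.15 to 4.36 CPM after IR (log2 fold change 0.48, adjusted P = 0.0972).

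Of the genes for membrane proteins and viral entry or budding, 2 of 3 tested genes were higher, against 15.5% of all genes. All 3 have transcripts of high GC content (above 56.5%, described below). In that class 36.3% of all genes were higher. LGALS3BP (chr17:78971238-78979947), a secreted glycoprotein that binds galectins, was at 27.2, 29.5 and 25.0 CPM in untreated cells and at 39.5, 39.2 and 45.0 CPM after IR. The groups lay well apart, with a log2 fold change of 0.60 (SE 0.09, adjusted P = 0.00144). IFITM3 (chr11:319676-329475), which blocks fusion of viruses in endosomes, was at 34.7, 33.5 and 25.5 CPM and at 41.5, 45.8 and 48.4 CPM after IR. Untreated replicate 3 was the lowest, and all IR libraries were above the untreated ones, with a log2 fold change of 0.54 (SE 0.11, adjusted P = 0.00723). IFITM2, nearly identical in sequence to IFITM3, was at 38.1, 36.3 and 29.2 CPM and at 45.3, 55.3 and 35.9 CPM after IR. Because IR replicate 3 lay within the untreated range, its groups overlapped and the log2 fold change of 0.39 was not called (adjusted P = 0.0733), whereas it was 0.53 without that library (adjusted P = 0.00518). Reads can be split between these near-identical genes in more than 1 way, and for IFITM1, IFITM2, IFITM3 and the gene that shares their exons together the value was 0.46 (adjusted P = 0.0122). IFITM1, which acts at the cell surface, and BST2, which tethers budding virus, were at 0 in 2 of the 6 libraries each and at most at 0.178 CPM.

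Of the other antiviral effectors none of 5 tested genes was called by edgeR, against 30.1% of all genes. Among the 5, 1 (SAMD9) had an unadjusted P under 0.05. The DESeq2 Wald test and the edgeR likelihood ratio test called none of them either. The dynamin-like GTPases MX1 and MX2, which trap viral ribonucleoproteins and capsids, were at 1.54 to 3.18 CPM and 1.45 to 2.05 CPM over the 6 libraries, with log2 fold changes of 0.14 and −0.20. CMPK2, a mitochondrial nucleotide kinase, was at 1.26, 1.07 and 0.928 CPM and at 0.678, 0.980 and 0.421 CPM after IR. With a mean of 19.5 counts its 95% confidence interval reached from −1.54 to 0.07 (log2 fold change −0.73, adjusted P = 0.151). RSAD2, which encodes viperin and lies beside CMPK2 on the opposite strand, was at 0.0977 to 0.357 CPM and could not be tested. SAMD9 and SAMD9L, which limit translation in infected cells, had log2 fold changes of −0.26 and −0.01.

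IFI6 (chr1:27666064-27672212), a small protein of the endoplasmic reticulum and mitochondria that protects from cell death, was at 2.86, 3.70 and 2.64 CPM in untreated cells and at 5.37, 4.74 and 5.03 CPM after IR. The groups lay apart, with a log2 fold change of 0.71 (SE 0.18, adjusted P = 0.0153). Without untreated replicate 1 it was 0.67 and narrowly missed the threshold (adjusted P = 0.0552). IFI27, its close relative, and XAF1, a binding partner of the apoptosis inhibitor XIAP, were not called, and XAF1 spread from 2.61 to 6.29 CPM among the IR libraries alone.

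The genes of ADP-ribosylation, PARP9, DTX3L, PARP12 and PARP14, were among the least changed, with log2 fold changes between −0.10 and 0.16. None was called by edgeR's or DESeq2's tests, and 0 of the 4 had an unadjusted P under 0.05. PARP14 was at 71.8 to 77.5 CPM in untreated and at 67.9 to 82.2 CPM in IR libraries. PARP9 and DTX3L, which form a complex and are transcribed in opposite directions from neighbouring starts, had log2 fold changes of 0.02 and −0.10. PSMB8 (chr6:32840717-32844679), a catalytic subunit of the immunoproteasome that shapes peptides for MHC class I, was at 18.9, 17.2 and 20.6 CPM and at 26.2, 27.2 and 29.3 CPM after IR. The groups of PSMB8 lay apart by more than 5 CPM, with a log2 fold change of 0.55 (SE 0.09, adjusted P = 0.00236). PSMB9, the neighbouring subunit on the opposite strand, was at 2.74 to 3.51 CPM and 3.48 to 3.87 CPM and was not called (0.22, adjusted P = 0.382). The guanylate-binding proteins GBP1 and GBP2, strong targets of interferon gamma, were at 2.25 CPM or less in every library and not called.

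IFI44 (chr1:78649796-78664078), a cytosolic protein whose action is less well known, was at 1.65, 3.08 and 3.03 CPM in untreated cells and at 5.13, 5.28 and 5.14 CPM after IR. Untreated replicate 1 was the lowest, and all IR libraries were close to each other and above the untreated ones. The log2 fold change was 0.99 (SE 0.23, adjusted P = 0.00980) and 0.76 without untreated replicate 1 (adjusted P = 0.0226). IFI44L, the neighbouring relative, was at 5.44, 6.73 and 7.04 CPM and at 5.86, 5.61 and 4.56 CPM after IR, with a log2 fold change of −0.28 that was not called (adjusted P = 0.232). SP110 (chr2:230165186-230225729), a nuclear body protein, was at 15.2, 14.6 and 17.2 CPM and at 18.6, 20.6 and 18.1 CPM after IR. The groups were separated by less than 1 CPM, and the log2 fold change of 0.28 was just past the threshold (SE 0.10, adjusted P = 0.0493). It did not pass without untreated replicate 1 or 2 or IR replicate 1 or 2 (0.26, 0.24, 0.28 and 0.23, adjusted P from 0.0823 to 0.167). IFI35, a partner of NMI, had 0.384 CPM or less in every library.

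The 26 tested genes that were not called had log2 fold changes between −0.77 and 0.48, of which 20 lay within 0.3 of 0. For 24 of them the 95% confidence interval excluded both a doubling and a halving, that is, a log2 fold change of 1 in either direction. Counts were simulated for this comparison over 14323 genes, without a trend by GC content (described below). A log2 change of 1 was found in 86% and one of 0.5 in 58% of the genes given it. Changes of the smaller size can therefore be missed. Only 200 genes, drawn at any count, were changed there, whereas 30.1% of genes were called in the data. The shares are thus not those of these 26 genes, some of which have few counts.

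Because several genes of one family share inducers, the ratio of related genes was followed within each library. Such a ratio does not depend on the scaling of the library. It is not a ratio of molecules, as the transcripts differ in length, so that only its shift between groups is read. The ratio of IFIT2 to IFIT1 was 0.198, 0.201 and 0.192 in untreated cells and 0.592, 0.452 and 0.473 after IR. IFIT3 to IFIT1 moved likewise, from 0.279, 0.297 and 0.204 to 0.630, 0.607 and 0.525. The ratio of OASL to OAS1 went from 0.524, 0.553 and 0.716 to 1.30, 1.43 and 1.35, and that of OASL to OAS3 from 0.0714, 0.0890 and 0.0923 to 0.198, 0.169 and 0.193. For the neighbours IFI44 and IFI44L it went from 0.303, 0.457 and 0.431 to 0.876, 0.942 and 1.13. In these 5 pairs the groups did not overlap, with log2 shifts of 1.35, 1.19, 1.20, 1.15 and 1.32. Nor did they for IFIT5 to IFIT1 (0.33), IFIT2 to IFIT5 (1.02), IFIT3 to IFIT5 (0.86) and OAS2 to OASL (−1.84), so that 9 of 21 pairs lay apart and 12 overlapped. Several pairs share a gene, and ratios of other genes were not counted. Of all single genes tested, 47.1% lay apart in CPM, so that the count of pairs is not read as a trait of these families. The ratios of PSMB8 to PSMB9, MX1 to MX2 and SAMD9 to SAMD9L overlapped between the groups. Over 21 pairs of tested relatives, the two-sided exact permutation test could not go below P = 0.1 (adjusted P = 0.233), so that no pair can be called by this test.

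Levels were compared between genes as TPM, which the authors scaled for transcript length. In untreated cells IFITM3 had the highest level of the listed genes, with 82.4 ± 14.4 TPM (SD, n = 3), followed by EIF2AK2 with 74.5 ± 3.53 and IFITM2 with 69.8 ± 24.6, whose ranges overlapped. TRIM25 had 42.5 ± 3.15 TPM, which overlapped IFITM2 in its lowest library, and PARP14 and STAT2 followed with 24.3 ± 4.28 and 21.7 ± 0.601 TPM. In all, 3 genes had a mean of 50 TPM or more, 10 lay between 10 and 50, 24 between 1 and 10, and 9 below 1 TPM. Only 8 of the 45 pairs of neighbours in this order did not overlap in the untreated libraries. The 5 genes with the largest fold changes had low to middle levels, with 5.03 ± 0.516 TPM for ISG15, 3.91 ± 0.793 for IFI44, 2.37 ± 0.485 for IFIT3, 1.43 ± 0.319 for OASL and 1.29 ± 0.192 for IFIT2. After IR they reached means of 12.9, 9.62, 4.80, 2.71 and 2.89 TPM. The summed level of all listed genes was 483 to 560 TPM in untreated and 572 to 653 TPM in IR libraries, and without IFITM3 and IFITM2, the highest 2 over all libraries, it was 361 to 380 TPM and 355 to 393 TPM, which overlap.

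Counts were then divided into transcripts, since the estimation spreads reads over all isoforms of a gene. For 26 of the 40 tested genes the transcript with the most counts was protein coding. For OAS1, OAS2, MX1, MX2, IFI27, GBP1 and IFI44L it was annotated as a retained intron, for RIGI, OAS3, OASL, XAF1 and GBP2 as a target of nonsense-mediated decay, and for IFIH1 and CMPK2 as a transcript of undefined coding sequence. In 13 genes protein-coding transcripts held under 50% of the counts over all libraries, among them the called genes RIGI (11.8%), OAS3 (22.7%), OASL (45.0%) and STAT2 (49.6%). For RIGI this share was 0%, 1.86% and 7.38% in untreated cells and 16.6%, 10.7% and 19.3% after IR, and the log2 fold change over coding transcripts alone was 2.55 (adjusted P = 0.0514). Over coding transcripts alone OASL had a log2 fold change of 1.03 (adjusted P = 0.0622) and STAT2 one of 0.17 (adjusted P = 0.209), neither of which passed the test. ISG15, IFIT3, IFI6 and USP18 had 100% of their counts on coding transcripts. With coding transcripts alone, 8 genes were higher and 1 lower of 34 that could be tested.

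Fold changes in these libraries followed the GC content of the transcripts, for all genes and not only for the listed ones. In the lowest of 4 GC classes of equal size (up to 42.7%) 4.19% of all genes were higher and 29.2% lower after IR, and in the highest class (above 56.5%) 36.3% were higher and 1.82% lower. The median log2 fold change went from −0.16 to 0.26 over these classes. Of the listed genes that rose, IFIT2 (42.7%), IFI44 (38.7%) and RIGI (40.2%) were in the lowest class, in which most called genes fell, and ISG15 (64.2%), LGALS3BP (61.6%) and IFITM3 (59.2%) were in the highest. EIF2AK2 (38.7%), which fell, was in the lowest class. When the GC trend was removed from every library, 13 listed genes were higher and 1 lower. The log2 fold change of IFI44 was then 1.19 and that of RIGI 0.61, while ISG15 had 0.89, IFITM3 0.34 and LGALS3BP 0.33, all still called. EIF2AK2 was not called after this step (−0.18, adjusted P = 0.0730), and IFIT5 was (0.37, adjusted P = 0.0103).

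**Figure D3:**
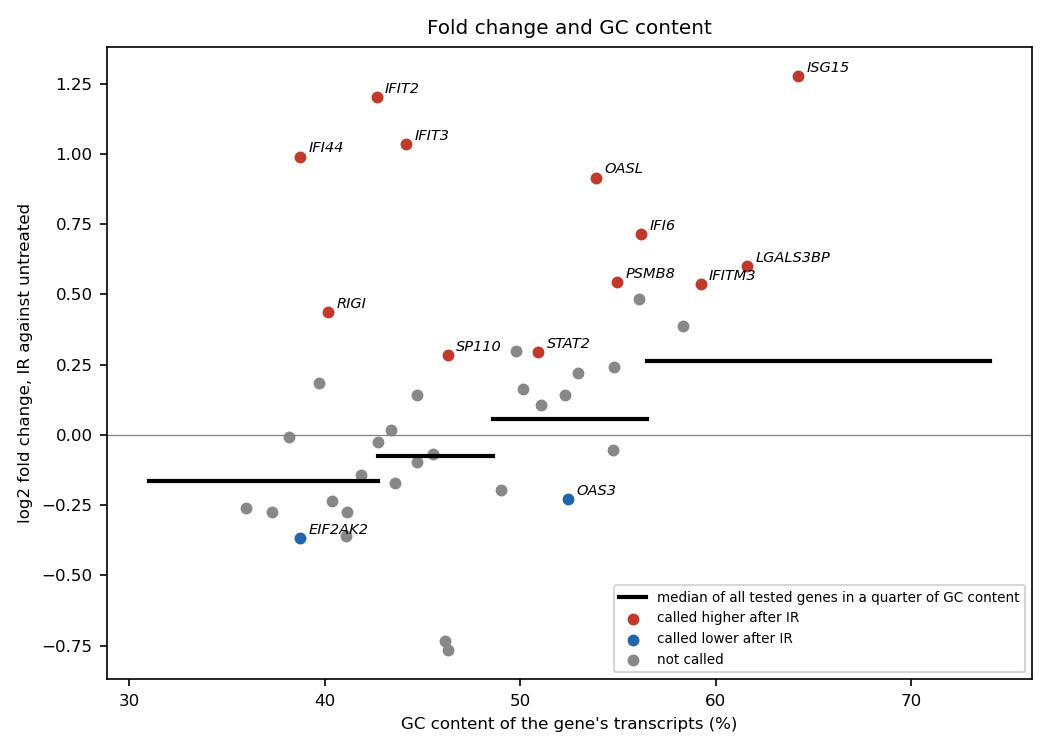
Log2 fold change after IR against the GC content of the gene's transcripts for the 40 tested genes, coloured by call, with black bars at the median of all tested genes in each of the 4 GC classes. The bars rise from −0.16 to 0.26, and IFIT2, IFIT3 and IFI44 lie far above the bar of their class.

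The genes around the listed ones were read from 5 lists of the interferon pathway. Of 112 genes in these lists 75 were tested, of which 12 (16%) rose and 7 (9.33%) fell, against 15.5% and 14.5% over all genes, so that the share that rose was near that of all genes. Their median log2 fold change was 0.09. Of the 21 interferon ligands none could be tested. IFNB1 and 17 others had 0 counts in all 6 libraries, where 3 counts would have been 0.0664 to 0.165 CPM, and IFNE, IFNG and IFNW1 were at 0.387 CPM or less. Ligand RNA was therefore not detectable at this depth for most of them.

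Of 13 tested receptors, kinases and factors, 2 (15.4%) were higher and 1 (7.69%) lower, against 15.5% and 14.5% over all genes. IL10RB, a chain of the receptor for interferon lambda, was at 44.5, 46.0 and 46.4 CPM and at 52.9, 55.4 and 62.6 CPM after IR (log2 fold change 0.32, adjusted P = 0.0126). The partner chain IFNLR1 had counts in 1 library only. TYK2 rose by 0.25 (adjusted P = 0.0485), close to the median of 0.26 over all genes of the highest GC class, to which it belongs (61.3%). JAK2, which serves the receptor of interferon gamma, was at 11.0, 11.1 and 13.1 CPM and at 8.62, 7.30 and 8.46 CPM after IR (−0.52, adjusted P = 0.0117). It was in the lowest GC class (35.8%), in which 29.2% of all genes were lower. IRF9 was not called, with 0.18 (adjusted P = 0.347), nor were IFNAR1 and IFNAR2 (0.01 and 0.24). On their own strand IL10RB and IFNAR2 share 1732 and 2038 exon bases with a readthrough gene, and IRF9 shares 1544 with another gene. Reads of these genes may have been split, and values for the genes together were not computed. Of 7 tested brakes on the pathway, the phosphatases PTPN11 (−0.32, adjusted P = 0.0140) and PTPN2 (−0.33, adjusted P = 0.0158) were called lower and 5 were not called. The 2 lower genes were 28.6% of those tested, against 14.5% of all genes. PTPN2 (41.6%) was in the lowest GC class, in which 29.2% of all genes were lower. PTPN11 (42.8%) was in the class above it, in which 18.0% were lower. All 7 values were below 0, as were 48.7% of all genes, and no test of the list was run. SOCS1 had −0.62 and was not called (adjusted P = 0.0577).

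Of 11 tested genes of nucleic acid sensing, 2 (18.2%) were higher and 1 (9.09%) lower, against 15.5% and 14.5% over all genes. STING1, the adaptor of cytosolic DNA sensing, was at 2.36, 2.85 and 3.57 CPM in untreated cells and at 4.74, 4.68 and 7.11 CPM after IR. The groups lay apart, and the log2 fold change was 0.93 (SE 0.23, adjusted P = 0.0127). IRF3, the factor it activates, was at 44.5, 41.9 and 42.0 CPM and at 52.2, 53.4 and 64.0 CPM after IR (0.41, adjusted P = 0.00780). Both STING1 (57.2%) and IRF3 (61.5%) were in the highest GC class, in which 36.3% of all genes were higher. CGAS was at 11.3 to 12.5 CPM and at 13.2 to 13.97 CPM after IR, which did not overlap, and was not called (0.19, adjusted P = 0.151). SAMHD1, an enzyme that breaks down deoxynucleotides, fell by 0.24 (adjusted P = 0.0283). IRF7, which amplifies the response, had counts in 1 library only.

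Of 44 tested genes among 55 other interferon-stimulated genes, 8 (18.2%) were higher and 3 (6.82%) lower. Over all genes these shares were 15.5% and 14.5%, so that the share that rose was near that of all genes. TAP1, which carries peptides for MHC class I and is a neighbour of PSMB8 and PSMB9 on chromosome 6, was at 14.4, 15.03 and 16.9 CPM and at 25.1, 27.8 and 33.0 CPM after IR (0.90, adjusted P = 7.63e-04). TRIM22, which is also known as a p53 target, was at 5.82, 8.16 and 7.23 CPM and at 12.9, 13.4 and 11.8 CPM after IR (0.83, adjusted P = 0.00240). PML had a log2 fold change of 0.39 and TRIM5 one of 0.25 (adjusted P = 0.00902 and 0.0177). NCOA7 (−0.54, adjusted P = 0.00312) and RNF213 (−0.35, adjusted P = 0.0126) fell. The chemokines CXCL9, CXCL10 and CXCL11 and the gene EPSTI1, which interferon induces strongly in many cells, were at 0.0484 CPM or less. Without untreated replicate 1, 6 of the pathway genes were higher and 4 lower. With an offset for effective transcript length 3 were higher and 3 lower. Over all genes, 2227 higher and 2080 lower became 1295 and 1287 without that library, and 835 and 875 with the offset. The counts of these lists, like those of all genes, thus depend on single libraries and on the processing.

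Of the 14 called genes, ISG15, IFIT2, IFIT3, IFI44, IFITM3, LGALS3BP and PSMB8 were called in all 17 alternatives of the processing. OASL was called in all but that of coding transcripts alone. The remaining 6 were lost in at least 2 alternatives each, SP110 in 10 and OAS3 in 11 of the 17. Of the 26 genes that were not called, 24 were called in none of the alternatives in which they could be tested, and IFITM2 and IFIT5 were called in 4 and 2.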

How the data were processed

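RNA of 3 untreated and 3 irradiated U-2 OS libraries was sequenced. The authors trimmed reads with fastp and assigned them with kallisto to GENCODE release 37 of GRCh38. They deposited, per transcript, estimated counts without normalization and TPM values scaled for effective length and library total, with the length and effective length. Their methods name a total RNA kit, whereas poly(A) RNA and an mRNA kit are named in the labels. The name of the file of IR replicate 3 carries a mark that could stand for a repeat, and whether it does is not given in the sources used here.

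Here, transcripts were matched to GENCODE release 44 (158711 of 161171 matched, with 98.2% to 98.5% of the counts), summed per gene and rounded. Genes passing filterByExpr were scaled (TMM) and fitted with glmQLFit, then tested with glmQLFTest, of edgeR 4.0.16 (limma 3.58.1, R 4.3.3) with Benjamini–Hochberg adjustment over all 14323 genes and a threshold of 0.05. The SE was taken as the size of the log2 fold change divided by the root of its F value. TPM values were summed per gene. Single ratios were tested by a two-sided exact permutation test. CPM and intervals do not include the error of splitting reads between isoforms, which was not analysed here.

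The members, role lists and pathway lists were chosen with earlier results of these data known. Values in every library are given for each called member, the 5 tested members of highest mean TPM, uncalled members without overlap and with an absolute log2 fold change over 0.5, and the 2 tested members of fewest counts; other values printed were chosen after they were seen. Of each pathway list at most 6 called genes are named. Alternatives were no filter, at least 10 counts in every library, DESeq2 size factors, the DESeq2 1.42.0 Wald test, edgeR's likelihood ratio test, removal of the GC trend (loess, span 0.5), a replicate block, these last 2 together, an offset for effective length, leaving out each library, and, chosen after seeing the data, protein-coding transcripts only and sums of genes that share exons or sequence. On simulated counts of this comparison, in which 200 of 14323 genes were changed and no GC trend was put in, the test called 10 unchanged genes. The number of false calls under the GC trend of these libraries is not given by this value. Pairs of replicates without IR replicate 3 had a chi-square per gene of 3.46 to 9.28, more than sampling noise gives. IR replicate 3 had 29.2 with IR replicate 1 and 33.5 with IR replicate 2. Values of some single genes of the pathway and marker lists are not reported here.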

Additional observations from a re-analysis of the deposited data

How the results depend on the processing

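The count of listed genes that were higher after IR, 12, lay between 8 and 13 under the 17 alternatives. Over all genes the count of higher genes, 2227, lay between 835 with the effective length offset and 2417 with edgeR's likelihood ratio test. The count of lower genes, 2, was 1 with no filter, the DESeq2 Wald test, the replicate block, the GC trend removed with and without the block, protein-coding transcripts only and in each of the 6 fits without 1 library, and 0 with the effective length offset, where edgeR gave 4 of the 40 genes a negative change at an unadjusted P under 0.05. The pathway genes that were higher, 12, numbered 3 with that offset, 6 to 11 without 1 library and up to 17 with the others (the GC trend removed), and those that were lower, 7, numbered 3 with the offset, 4 with the replicate block and GC trend removed, and 4 to 9 without 1 library. Causes were not tested. Same-numbered libraries did not deviate together (r −0.01, −0.03 and −0.07). With 3 libraries per group this cannot settle whether the numbers pair them. With the replicate block 12 listed genes were higher and 1 lower, 8 and 6 pathway genes, and 1727 and 1624 of all genes.

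Of 672 values of single genes, 601 kept their direction and side of the threshold, 35 lost and 6 gained the call, and 30 in 14 genes changed sign, 29 of them in genes that were not called. With the GC trend removed the log2 fold change was 0.0035 for DTX3L, 0.10 for PARP14, 0.029 for HERC6, 0.195 for SAMD9L and 0.0057 for IFIT1, and with the replicate block as well 0.0027, 0.101, 0.028, 0.197 and 0.0046. With the effective length offset it was −0.14 for PARP12, 0.038 for GBP2, −0.32 for MX1 and −0.37 for TRIM25. With protein-coding transcripts only it was −0.44 for PARP12, −0.0034 for PARP9, 0.019 for HERC6, 0.11 for XAF1 and 0.12 for OAS3, which had been called lower. Without 1 library it ranged from −0.12 to 0.025 for PARP14, −0.077 to 0.12 for PARP9, −0.16 to 0.30 for GBP1, −0.29 to 0.16 for IFI27, −0.60 to 0.063 for XAF1, −0.11 to 0.33 for MX1 and −0.11 to 0.070 for SAMD9L. Genes with an untreated mean under 5 CPM, 6 of the 14 called, rest on few counts in the untreated libraries. Intervals cover the spread between libraries only.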

Other observations

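For some listed genes that were not called, the length-scaled TPM moved otherwise than the CPM; these were chosen after their values were seen. TRIM25 was at 41.4, 46.1 and 40.1 TPM in untreated cells and at 33.1, 31.4 and 30.7 TPM after IR, all lower, whereas its CPM overlapped between the groups (75.3 to 76.7 and 76.0 to 88.7 CPM). HERC6 was at 5.79, 4.60 and 6.28 TPM and at 3.94, 3.94 and 3.83 TPM after IR.

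The share of counts on protein-coding transcripts also differed between the groups in such genes. It was 71.7%, 75.8% and 64.4% for PARP12 in untreated cells and 39.4%, 52.7% and 48.2% after IR. For PARP14 it was 87.7%, 84.9% and 88.7%, and 76.4%, 74.6% and 59.6% after IR. For TRIM25 it was 85.8%, 84.5% and 90.5%, and 93.8%, 92.7% and 95.9% after IR. These shares were not tested.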
